A study of Sus scrofa with 2 samples.

Results

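LYVE1, MRC1, CD209, COLEC12, DAB2, F13A1, CCL14, C1QA and C1QB are scavenger receptor, endocytosis, coagulation, chemokine and complement genes of tissue macrophages. They are 9 of the 26881 gene features in the count tables, and they were picked by name with their levels in these data already known. Their levels are therefore given as a description and no test was made of them. All 9 matched by symbol, and each is a single row of the deposited table.

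Endometrial cells were profiled by droplet sequencing from the transcript 3' end, and transcripts were counted by their unique molecular identifiers (UMIs). The EL library came from a Yorkshire sow with embryo loss, which had an earlier abortion and then 3 failed inseminations in succession. The EIS library came from a Yorkshire sow with successful insemination, sampled on day 30 of pregnancy. Both sows were 3 years old and of similar genetic background, and no day of sampling is given for the EL sow. With 1 library per condition, sow, reproductive stage and library cannot be told apart, and there is no replicate check on any difference between EL and EIS. About 200 mg of tissue from each sow was digested with collagenase and a protease, passed through a 30 µm filter and freed of red cells, so the cells are those that survived this treatment.

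Resident macrophages take up debris, hyaluronan and glycoproteins through surface receptors, and LYVE1, MRC1 and CD209 are receptors of this kind. C1q, whose chains include C1QA and C1QB, starts the classical complement pathway and coats dying cells for uptake, and tissue macrophages are a main source of it. In the uterus such macrophages lie in stroma and around vessels, where they are known for clearing apoptotic cells and for tissue remodelling in pregnancy. LYVE1 and MRC1 are also expressed by lymphatic endothelium, and DAB2 by many epithelial and trophoblast cells.

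After filtering, 9864 EL and 8068 EIS cells were kept, with a median of 2338 UMIs per cell in EL and 2252 in EIS, and totals of 38548855 UMIs in EL and 33456613 in EIS. The libraries shared 27 deposited barcodes, 24 of them among kept cells, and 0 EL and 1 EIS macrophage-gated cells carried a shared barcode. Cells were assigned to types by their markers, without clustering and without any of the 9 genes. A macrophage-gated cell had UMIs of at least 3 of 16 markers, among them TYROBP, FCER1G, AIF1, CTSS, SPI1 and CD14. In it these markers exceeded their share of the library by more than any other type's markers did. The 16 were those of 22 listed markers that could be measured, and CSF1R, CD68 and CD163 were not among them. The gate held 96 EL cells, 0.973% of kept cells (0.789 to 1.19%, a 95% Clopper-Pearson interval). It held 576 EIS cells, 7.14% (6.59 to 7.72%). Median depth was 3218 UMIs in EL and 3038 UMIs in EIS gated cells. Together the 16 gate markers reached 5869 CPM (UMI counts scaled to a type's total of 1e+06) in EL gated cells, and 6075 CPM in those of EIS, and 14 of the 16 lay within 2-fold. Of the others, CD14, a co-receptor for bacterial lipopolysaccharide, had 72.5 CPM in EL and 268 CPM in EIS, and MARCO, a scavenger receptor, had 39.5 CPM in EL and 2.93 CPM in EIS. All intervals below are exact, at the 95% level, and cover counting error only.

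Summed over all kept cells, all 9 genes were at least 2-fold lower in EL, where 17.3% of the 17131 genes with 20 or more UMIs were lower by that much and 29.5% were higher. The median log2 ratio of EL over EIS was -4.77 over the 9 genes and 0.55 over all genes tested. Such sums move with the number of macrophages recovered as well as with their RNA per cell, and the gate's share of cells also differed between the libraries. LYVE1 had 2.80 CPM in EL (2.30 to 3.38) and 76.6 CPM in EIS (73.7 to 79.7), and C1QB had 35.7 CPM in EL (33.9 to 37.7) and 226 CPM in EIS (221 to 231). The fold by which EL was lower spanned 6.32 for C1QB to 429 for COLEC12, and the COLEC12 value rests on 1 EL UMI (interval 76.5 to 1.70e+04). CD209 had 0 UMIs among all kept EL cells and 204 in EIS, which makes it at least 78.4-fold lower in EL against a floor of 3 UMIs over the library.

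Within the macrophage gate the 9 genes separated: 7 were at least 2-fold lower in EL and the complement genes C1QA and C1QB were not. Over all 9457 genes with 20 or more UMIs in the gate, 10.5% were at least 2-fold lower in EL and 10.2% at least 2-fold higher, with a median log2 ratio of 0.17. The median over the 9 genes was -3.52.

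LYVE1 (ENSSSCG00025022399), a receptor for hyaluronan, had 12 UMIs in EL gated cells, a level of 26.3 CPM (13.6 to 46.0), and 1150 UMIs in EIS gated cells, 562 CPM (530 to 596). It was detected in 2 of 96 EL cells (2.08%, interval 0.253 to 7.32%) and in 153 of 576 EIS cells (26.6%, 23.0 to 30.4%). The level was 21.3-fold lower in EL (12.2 to 41.4). A single EL cell held 8 of the 12 UMIs, and the highest EIS cell held 46.

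MRC1 (ENSSSCG00025027355), the mannose receptor that takes up glycoproteins, stood at 39.5 CPM in EL gated cells (23.4 to 62.5) and at 482 CPM in EIS gated cells (452 to 513). It was found in 6 of 96 EL cells and 121 of 576 EIS cells, and its level was 12.2-fold lower in EL (7.67 to 20.7). CD209 (ENSSSCG00025014955), a C-type lectin that binds mannose and fucose glycans, had no UMI in the 96 EL cells, which by the floor of 3 counts allows a UMI in up to 3.13% of cells (exact upper limit 3.77%) and sets no limit on the cells that express the gene. In EIS it had 154 UMIs, 75.3 CPM (63.9 to 88.2), in 42 of 576 cells, and it was at least 11.4-fold lower in EL. COLEC12 (ENSSSCG00025047619), a collectin-type scavenger receptor, had 1 UMI in EL gated cells, 2.20 CPM (0.0556 to 12.2), and 149 UMIs in EIS gated cells, 72.9 CPM (61.6 to 85.6). Its ratio of 33.2-fold lower in EL has an interval of 5.87 to 1319. For all 4 receptors the EL and EIS intervals stood apart.

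**Figure D1:**
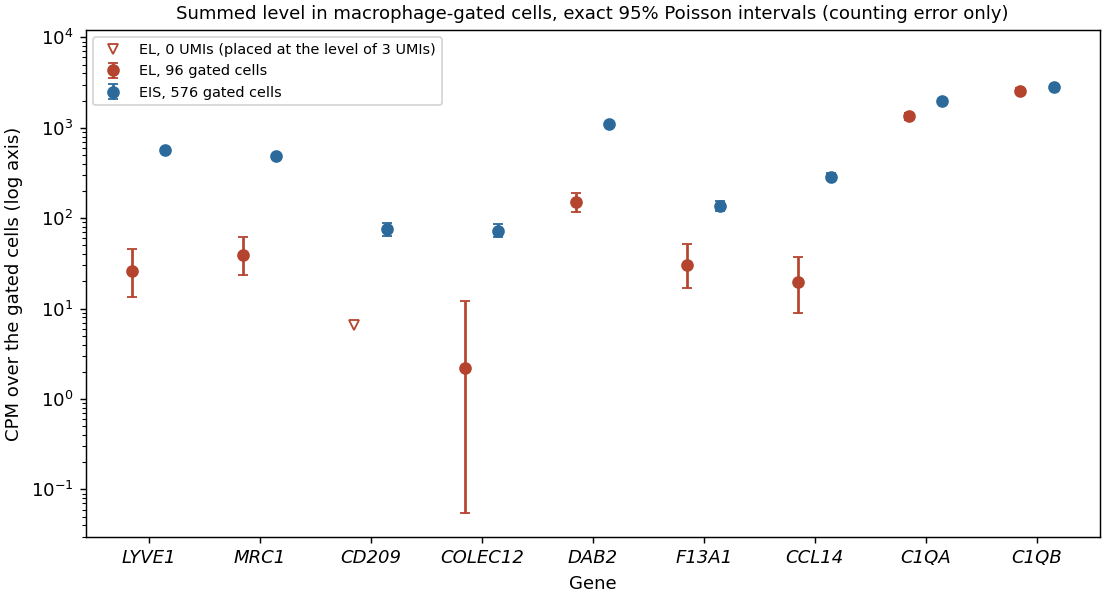
Level of each gene summed over macrophage-gated cells, in CPM on a log axis, in EL (red, left of each pair, 96 cells) and EIS (blue, 576 cells). Bars are exact 95% Poisson intervals and the open triangle stands at the level of 3 UMIs for CD209, which had 0 UMIs in EL. C1QA (1335 CPM in EL, 1977 CPM in EIS) and C1QB (2580 CPM in EL, 2862 CPM in EIS) lie close together, while LYVE1 (26.3 CPM in EL, 562 CPM in EIS) lies far apart.

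DAB2 (ENSSSCG00025037859), an adaptor that loads cargo into clathrin-coated pits, had 149 CPM in EL gated cells (116 to 189) and 1113 CPM in EIS gated cells (1068 to 1160). Of the 7 lower genes it was found in the most cells, 29 of 96 in EL and 303 of 576 in EIS, and was 7.46-fold lower in EL (5.86 to 9.64). F13A1 (ENSSSCG00025051983) encodes the A subunit of coagulation factor XIII, which cross-links fibrin. It had 30.7 CPM in EL (16.8 to 51.6) and 137 CPM in EIS (121 to 154), 4.45-fold lower in EL (2.61 to 8.25). CCL14 (ENSSSCG00025020768), a CC chemokine that attracts monocytes, had 19.8 CPM in EL (9.04 to 37.5) and 289 CPM in EIS (266 to 313), 14.6-fold lower in EL (7.65 to 32.1). It was found in 7 of 96 EL cells and 130 of 576 EIS cells.

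C1QA (ENSSSCG00025027898) and C1QB (ENSSSCG00025027715), chains of the complement component C1q, gave the smallest differences. C1QA had 608 UMIs and 1335 CPM in EL (1231 to 1446) and 4042 UMIs and 1977 CPM in EIS (1916 to 2038), 1.48-fold lower in EL (1.36 to 1.62). C1QB had 2580 CPM in EL (2435 to 2732) and 2862 CPM in EIS (2789 to 2936), 1.11-fold lower in EL (1.04 to 1.18). The shares of cells with a UMI overlapped, 53.1% in EL and 49.7% in EIS for C1QA and 55.2% in EL and 54.7% in EIS for C1QB. These 2 values depend on the gate: when each library's own marker share set the gate, the log2 ratio was -1.64 for C1QA and -1.22 for C1QB, and among gated cells with C1q UMIs that of C1QB was 0.25. Every setting tried left the other 7 genes at least 2-fold lower in EL.

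Markers of some other types differed between the gated cells of the libraries. The 9 stromal markers summed to 22.0 CPM in EL, with 6 of them at 0, and to 2381 CPM in EIS, with none at 0. The 7 trophoblast markers were at 0 in EL and summed to 389 CPM in EIS, and the 6 epithelial markers reached a sum of 1039 CPM in EL against 881 CPM in EIS. The 6 lymphatic markers gave 6.59 CPM in EL, with 5 at 0, and 34.2 CPM in EIS, with 1 at 0. Set against stromal markers, COLEC12 had 30.6 UMIs per 1000 stromal-marker UMIs in EIS macrophage-gated cells and 0.574 in EIS stromal-gated cells. DAB2 had 2864 UMIs per 1000 trophoblast-marker UMIs in EIS macrophage-gated cells and 194 in EIS trophoblast-gated cells. Whether the EIS macrophages came from the sow or from the conceptus cannot be told apart.

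Restricting the gate to the cells with a UMI of C1QA or C1QB, 55 in EL and 345 in EIS, left 7 genes at least 2-fold lower in EL, though their order by fold changed. LYVE1 then had 48.6 CPM in EL and 772 CPM in EIS, 15.9-fold lower in EL (9.05 to 30.8). CCL14 was 18.7-fold, MRC1 11.5-fold, F13A1 7.12-fold and DAB2 5.86-fold lower in EL, COLEC12 was 24.9-fold lower on 1 EL UMI, and CD209 was at least 8.64-fold lower. C1QA was 1.12-fold lower in EL (1.03 to 1.22), whereas C1QB was higher, with 4763 CPM in EL and 3991 CPM in EIS, a ratio of 1.19 (1.12 to 1.27).

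Each gene's distribution over marker-gated types showed how far it belonged to macrophages. A gate's share of a gene's UMIs also follows the gate's size. The macrophage gate held 455409 of 38548855 UMIs in EL and 2044930 of 33456613 UMIs in EIS. C1QA and C1QB were concentrated there in both libraries: the gate held 79.6% of C1QA UMIs in EL and 76.6% in EIS, and 85.3% of C1QB UMIs in EL and 77.5% in EIS. CD209 and F13A1 were concentrated there in EIS, with 75.5% and 68.6% of their UMIs. The same gate held 44.9% of LYVE1, 68.0% of MRC1, 55.6% of CCL14, 40.1% of COLEC12 and 16.8% of DAB2 UMIs in EIS.

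**Figure D2:**
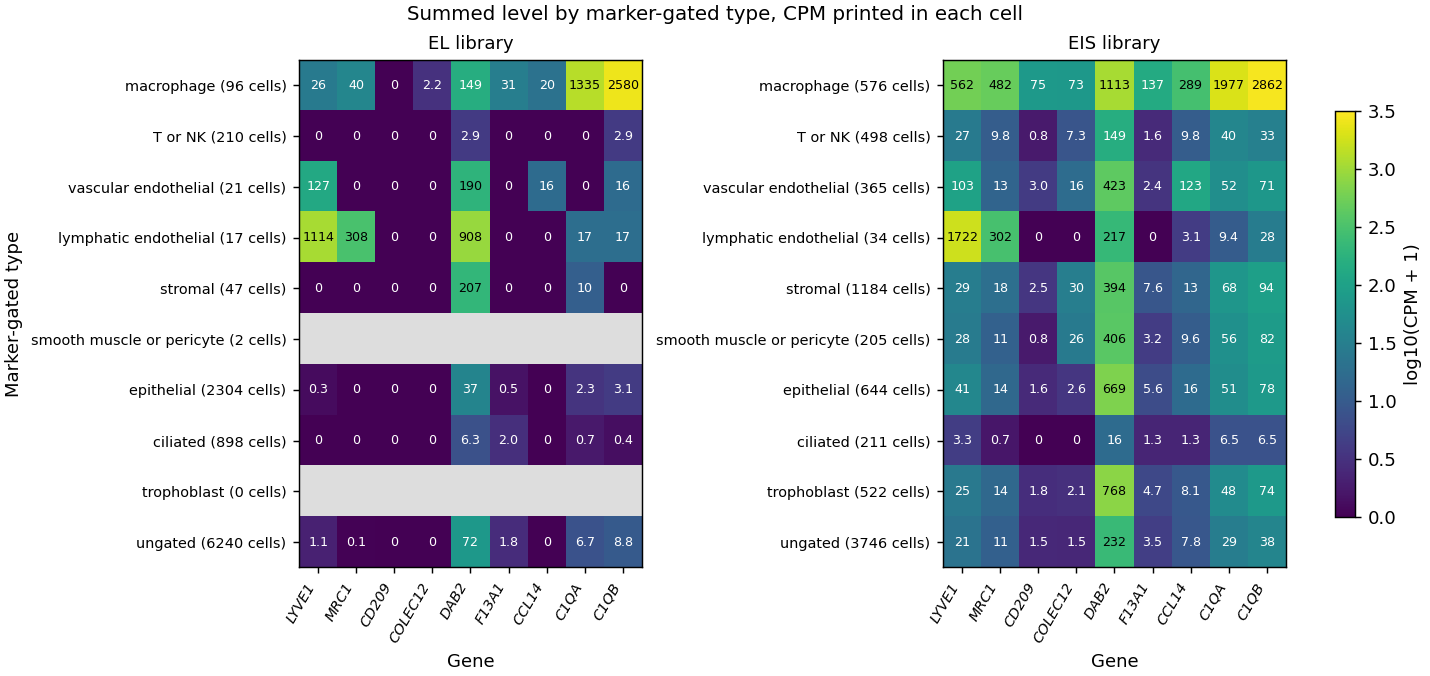
Level of the 9 genes in each marker-gated type, EL on the left and EIS on the right, with colour as log10(CPM + 1) and CPM printed in each field. Types with fewer than 10 cells in a library are grey. In EIS the macrophage row is the highest for every gene except LYVE1, whose lymphatic level was 1722 CPM.

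LYVE1 was highest in lymphatic-gated cells of both libraries, with 1114 CPM in EL (860 to 1420, 17 cells) and 1722 CPM in EIS (1581 to 1873, 34 cells). These few cells held 60.2% of all LYVE1 UMIs in EL and 21.4% in EIS. Next in EL came vascular-gated cells, at 127 CPM (54.7 to 250), above the macrophage gate at 26.3 CPM (13.6 to 46.0). The vascular value came from 8 UMIs in 2 of 21 cells, 6 of them in 1 cell. The macrophage value came from 12 UMIs in 2 of 96 cells, so this order rests on few cells. In EIS the macrophage gate at 562 CPM came next and vascular-gated cells followed at 103 CPM (88.5 to 120). Epithelial (40.7 CPM), stromal (29.3 CPM), smooth muscle or pericyte (28.0 CPM), T or NK (26.9 CPM) and trophoblast (25.1 CPM) gated cells of EIS lay lower, with overlapping intervals except between epithelial and trophoblast cells.

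MRC1 had the same level in lymphatic-gated cells of both libraries within counting error, 308 CPM in EL (183 to 487) and 302 CPM in EIS (244 to 368). In EL lymphatic-gated and macrophage-gated cells held 18 UMIs each, 48.6% of all 37 each. In EIS the lymphatic share was 6.63% and the macrophage share 68.0%. Such shares follow the number of cells in the lymphatic and macrophage gates as well as the level. Outside these gates the EIS levels of MRC1 reached at most 17.7 CPM, in stromal cells, with 1 UMI in ciliated cells and 0 UMIs in neutrophil, B, plasma and erythroid cells.

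COLEC12 was also present in EIS mesenchymal and endothelial cells. After the macrophage gate (72.9 CPM) its order was stromal at 30.1 CPM (24.9 to 36.0), smooth muscle or pericyte at 25.6 CPM (17.5 to 36.2) and vascular at 16.2 CPM (10.7 to 23.6), with overlap between neighbours in this order. T or NK cells had 7.34 CPM, epithelial cells 2.62 CPM, trophoblast cells 2.09 CPM, and ciliated, lymphatic, neutrophil, B and erythroid cells 0 UMIs. Stromal-gated cells held 32.0% of its EIS UMIs. Its only UMI among all 9864 kept EL cells lay in a macrophage-gated cell. The EL library held 47 stromal-gated cells, and a count of 0 in them allows up to 31.0 CPM, close to the EIS stromal level, so that absence was not detectable at this depth.

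CCL14 had a secondary place in EIS blood vessels. Vascular-gated cells had 123 CPM (106 to 141) in EIS, found in 97 of 365 cells, and held 19.2% of its UMIs, while lymphatic-gated cells had 3.14 CPM. In EL, 9 of the 10 CCL14 UMIs were in macrophage-gated cells and 1 was in a vascular-gated cell (15.8 CPM, 0.401 to 88.2). F13A1 in EL was spread beyond the macrophage gate, which held 22.2% of its 63 UMIs, while ungated cells held 49.2% at 1.79 CPM, and ciliated cells had 1.98 CPM (0.988 to 3.54).

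DAB2 was broad in both libraries, and the macrophage gate held 3.42% of its UMIs in EL and 16.8% in EIS. The gate's own share of kept cells, 0.973% in EL and 7.14% in EIS, differed in the same direction. The DAB2 shares therefore do not rank the libraries. In EIS the levels after the macrophage gate (1113 CPM) were 768 CPM in trophoblast cells (740 to 796), 669 CPM in epithelial cells (641 to 699) and 423, 406 and 394 CPM in vascular, smooth muscle or pericyte and stromal cells. The intervals of those last 3 overlapped. In EL lymphatic-gated cells were highest at 908 CPM (680 to 1188), followed by 284 CPM in 12 neutrophil-gated cells (136 to 523), 207 CPM in stromal, 190 CPM in vascular and 149 CPM in macrophage-gated cells, whose intervals overlapped. Epithelial cells had 37.2 CPM in EL (34.1 to 40.5) and 669 CPM in EIS. In lymphatic-gated cells the direction turned: DAB2 was 908 CPM in EL and 217 CPM in EIS (169 to 274), a ratio of 4.19 (2.87 to 6.08), opposite to the macrophage gate. Neutrophil-gated cells leaned the same way, with 10 UMIs in the 12 EL cells and 47 UMIs in 43 EIS cells (80.3 CPM).

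Free RNA in droplets can place UMIs in cells that do not make a transcript. Macrophage genes were therefore read in other types, where free RNA and doublets left after removal were not told apart. C1QA was found in 0 of 210 EL and 30 of 498 EIS T or NK cells (6.02%), with median depths of 1394 UMIs in EL and 1892 UMIs in EIS, and in 4 of 898 EL (0.445%) and 9 of 211 EIS (4.27%) ciliated cells, with median depths of 5966 UMIs in EL and 6955 UMIs in EIS. LYVE1 was found in 0 of 210 EL and 20 of 498 EIS T or NK cells (4.02%) and in 0 of 898 EL and 3 of 211 EIS ciliated cells. Larger EIS shares had C1QA in smooth muscle or pericyte (25.9%), trophoblast (24.9%), stromal (15.6%), vascular (14.5%) and epithelial cells (14.4%). The EL epithelial share with C1QA was 1.13%. LYVE1 was found in 15.1% of trophoblast and 12.1% of epithelial cells of EIS, and in 0.130% of EL epithelial cells. DAB2, which was broad over types, was found in 1 of 210 EL and 77 of 498 EIS T or NK cells (15.5%). Its T or NK level was 2.88 CPM in EL and 149 CPM in EIS, the latter equal to its 149 CPM in EL macrophage-gated cells. These shares lie below those of the EIS macrophage gate, and the EL macrophage share of LYVE1 (2.08%) had an interval that reaches below the limit of 1.43% that 0 of 210 EL T or NK cells allows. In EIS the ratio of C1QB to C1QA UMIs was 145 to 100 in macrophage-gated cells and lay between 136 and 152 to 100 in epithelial, stromal, smooth muscle, trophoblast and vascular cells. In T or NK cells it was 81.6 to 100, from 40 C1QB and 49 C1QA UMIs, and ciliated cells had 10 UMIs of each. MRC1 had 9.96 UMIs per 100 C1q UMIs in the EIS macrophage gate and 10.9, 10.9, 11.8 and 10.2 in epithelial, stromal, trophoblast and vascular cells, with 8.09 in smooth muscle or pericyte and 13.5 in T or NK cells, and CD209 had 1.56 in the gate and 1.56 in stromal cells. LYVE1 had 11.6 UMIs per 100 C1q UMIs in the gate and more in each of those types, with 83.9 in vascular, 37.1 in T or NK, 31.5 in epithelial, 20.6 in trophoblast, 20.2 in smooth muscle or pericyte and 18.1 in stromal cells. CCL14 had 5.97 in the gate and 99.5 in vascular cells, with 6.64 to 13.5 in the other 5 of those types. COLEC12 had 1.51 in the gate, 18.6 in stromal, 18.5 in smooth muscle or pericyte, 13.2 in vascular and 10.1 in T or NK cells, and DAB2 had 23.0 in the gate and 204 to 629 in those 6 types.

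Cell by cell, few cells carried several of the 9 genes in EL. At least 3 of them were detected in 39 of 9864 EL cells (0.395%, 0.281 to 0.540%) and in 919 of 8068 EIS cells (11.4%, 10.7 to 12.1%). The 39 EL cells were 28 macrophage-gated, 9 lymphatic-gated and 2 ungated cells. Of the 919 EIS cells 246 were macrophage-gated, 193 ungated, 124 trophoblast-gated and 120 stromal-gated. With 5 or more genes, 3 EL cells remained, all macrophage-gated, and 202 EIS cells, of which 120 were macrophage-gated. After each cell was thinned to 1000 UMIs, with 2388 EL and 1814 EIS cells too shallow to enter, the shares with at least 3 genes were 0.254% in EL and 4.09% in EIS.

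Inside the macrophage gate, at least 3 genes were found in 28 of 96 EL cells (29.2%, 20.3 to 39.3%) and 246 of 576 EIS cells (42.7%, 38.6 to 46.9%). At 1000 UMIs per cell the shares were 21.0% of 81 EL cells (12.7 to 31.5%) and 27.9% of 473 EIS cells (23.9 to 32.2%), with overlapping intervals. The tail differed more: at least 5 genes were found in 3 EL cells (3.13%, 0.649 to 8.86%) and 120 EIS cells (20.8%, 17.6 to 24.4%). At 1000 UMIs this was 1 of 81 EL cells and 58 of 473 EIS cells (12.3%). No EL cell had 8 or 9 of the genes, while 23 EIS cells had 8 and 23 had all 9.

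**Figure D3:**
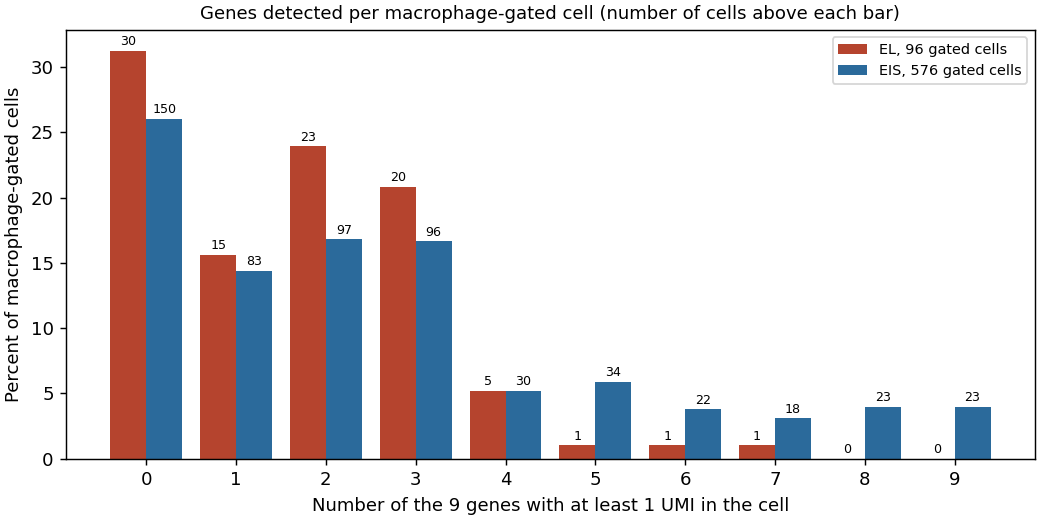
Share of macrophage-gated cells by how many of the 9 genes had at least 1 UMI, in EL (red, left) and EIS (blue, right), with cell numbers above the bars. Up to 3 genes the distributions are alike in shape, and the tail of 5 or more holds 3 EL cells and 120 EIS cells.

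The 120 EIS cells with 5 or more genes held most of the gate's receptor transcripts. They made up 32.8% of the gate's UMIs and held 95.7% of its LYVE1, 95.6% of its MRC1, 98.1% of its CD209, 92.6% of its COLEC12, 90.0% of its CCL14, 88.6% of its F13A1 and 83.1% of its DAB2 UMIs. C1q was spread more widely, with 61.0% of C1QA and 52.5% of C1QB UMIs in them. Since these cells were selected by the same genes, the shares describe the spread and carry no test. The 3 EL cells with 5 or more genes held all 12 LYVE1 UMIs and 14 of the 18 MRC1 UMIs of the EL gate, 1 of its 14 F13A1 UMIs and 3 of its 9 CCL14 UMIs. Cells with LYVE1 and MRC1 together thus existed in EL as 2 gated cells, against 95 in EIS, and a UMI of either gene was seen in 6 of 96 EL and 179 of 576 EIS gated cells.

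Split by which of these genes were detected, which also depends on depth, the gate held several classes of cells in each library. Cells with C1QA or C1QB but none of LYVE1, MRC1, CD209, COLEC12, F13A1 and CCL14 were 47 of 96 in EL (49.0%, 38.6 to 59.4%) and 164 of 576 in EIS (28.5%, 24.8 to 32.4%). Cells with C1q and at least 2 of those 6 genes were 3 in EL (3.13%, 0.649 to 8.86%) and 130 in EIS (22.6%, 19.2 to 26.2%). For comparison, at the deposited depth at least 2 of the 6 were found in 0 of 210 EL and 8 of 498 EIS T or NK cells (1.61%). In ciliated cells they were found in 0 of 898 EL and 0 of 211 EIS cells. Other EIS types had more, with 41 of 365 vascular (11.2%), 38 of 522 trophoblast (7.28%), 31 of 644 epithelial (4.81%) and 37 of 1184 stromal cells (3.13%). In EL epithelial cells they were found in 0 of 2304. Cells with neither C1q nor any of the 6 were 34.4% of the EL gate and 31.9% of the EIS gate, with median depths of 2327 UMIs in EL and 1519 UMIs in EIS.

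Among cells rich in C1q, with at least 50 C1QA and C1QB UMIs per 10000, a threshold chosen after the values were seen, the contrast was the same. There were 39 such EL cells and 149 such EIS cells, which held 90.2% of the gate's C1q UMIs in EL and 91.2% in EIS, with median depths of 3150 UMIs in EL and 4706 UMIs in EIS. None of the 6 genes was detected in 32 of the 39 EL cells (82.1%, 66.5 to 92.5%) and in 64 of the 149 EIS cells (43.0%, 34.9 to 51.3%). At least 2 of the 6 were found in 3 EL cells (7.69%, 1.62 to 20.9%) and 70 EIS cells (47.0%, 38.8 to 55.3%). Between 40 and 60 C1q UMIs per 10000 lay 5 EL and 23 EIS cells. C1q-rich cells without the 6 genes were thus seen in both libraries.

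**Figure D4:**
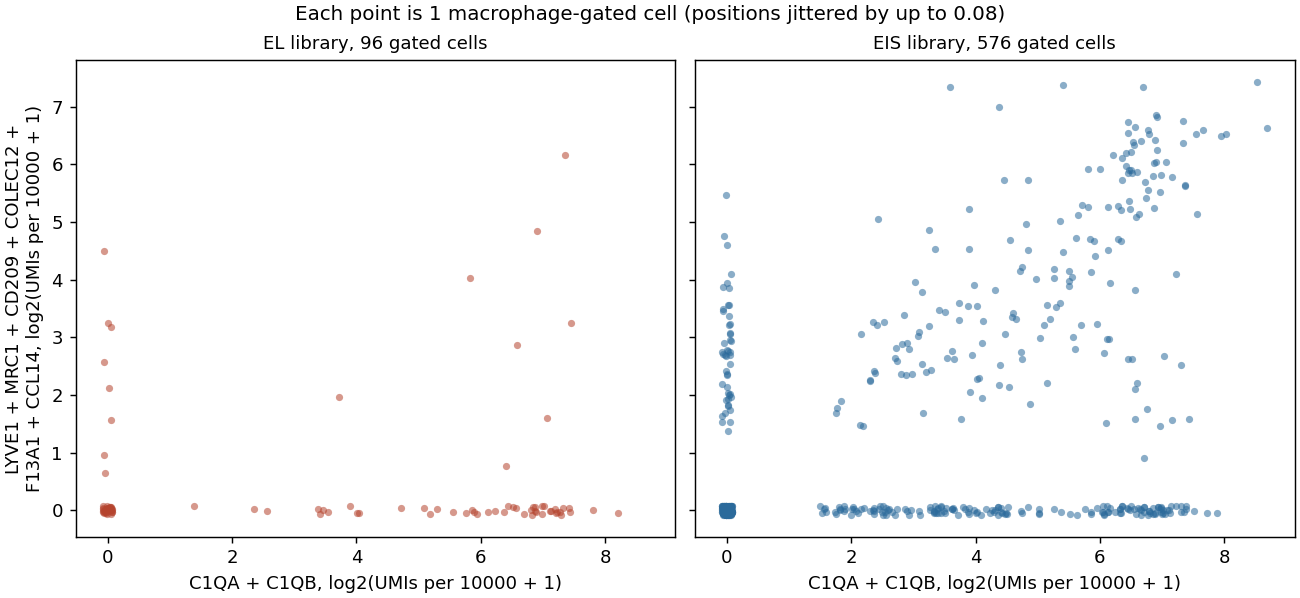
Each point is 1 macrophage-gated cell, EL on the left (96 cells) and EIS on the right (576 cells), with summed C1QA and C1QB on the x axis and the 6 genes LYVE1, MRC1, CD209, COLEC12, F13A1 and CCL14 summed on the y axis, both as log2(UMIs per 10000 + 1) and jittered by up to 0.08. EIS shows C1q-rich cells both with the 6 genes and along the zero line, and EL shows C1q-rich cells mainly along the zero line.

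The genes were found together in the same EIS cells more often than their separate shares would give. Among the 15 pairs of the 6 genes the number of gated cells with both was 2.55 to 6.26 times the product of the shares, with a median of 3.58. Pairs of the 6 with C1QA or C1QB had a median of 1.65 (1.47 to 2.01) and pairs with DAB2 one of 1.72 (1.61 to 1.86). The ratio cannot exceed the inverse of the commoner gene's share, a ceiling that CD209 with C1QA reached at 2.01, so the values of pairs with these common genes cannot be ranked against those of rarer ones. Depth can raise such ratios, since deeper cells show more of every gene. Thinned to 1000 UMIs the 15 pairs had a median of 3.73 (2.34 to 5.69). The LYVE1 and MRC1 pair had 3.08 thinned against 2.96 as deposited, while COLEC12 with CCL14 had 2.34 against 3.58 and CD209 with COLEC12 4.85 against 6.26, these last on 4 and 2 shared cells. CD209 was detected in the fewest gated EIS cells: of its 42 cells all 42 had C1QA, 41 had DAB2, 40 had LYVE1, 38 had CCL14 and 36 had MRC1. COLEC12 was nested in the same way, with C1QA in 56 of its 57 cells and LYVE1 in 50. In the other direction 42 of the 286 EIS cells with C1QA had CD209 (14.7%) and 128 had LYVE1 (44.8%). These counts are at the deposited depth, and at 1000 UMIs CD209 was left in 13 of 473 gated EIS cells. The part of abundance and depth in this nesting was not tested.

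In EL only 15 of the 36 possible pairs were found in at least 3 gated cells, against 36 of 36 in EIS, and thinning left 3 pairs in EL. C1QA and C1QB were the tightest pair in EL, with both in 49 cells, 96.1% of the cells with C1QA, and in EIS both were in 256 cells, 89.5% of those with C1QA. DAB2 accompanied C1QA in 25 of its 29 EL cells. MRC1 and CCL14 shared 5 EL cells out of 6 and 7. F13A1 and C1QA shared 4 of the 10 EL cells with F13A1, 0.753 times the product of their shares, whereas in EIS they shared 76 of 97 cells, 1.58 times the product. The part of dropout in these small EL numbers was not tested.

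**Figure D5:**
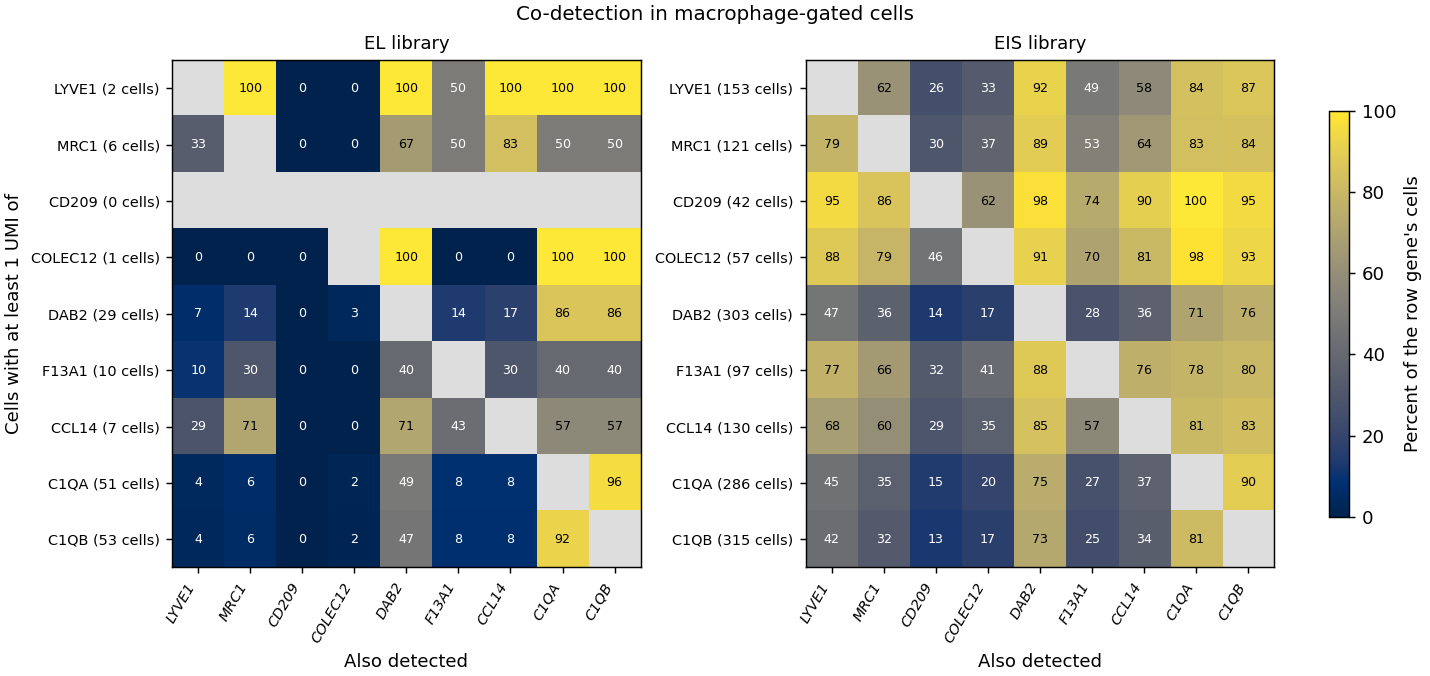
Co-detection in macrophage-gated cells, EL on the left and EIS on the right: each field gives the percent of cells with the row's gene that also had the column's gene, with the row's cell number beside its name. EIS rows for CD209 (42 cells) and COLEC12 (57 cells) are high across nearly all columns, while EL rows rest on 10 or fewer cells except for DAB2, C1QA and C1QB.

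The genes whose levels over types were most like the summed 9 genes were led by CD14. Over the 12 pairings of a library with a type of at least 50 cells, and among 7680 genes, the 10 highest Pearson correlations of log2(CPM + 1) ran from 0.935 to 0.968. This gate marker had 0.968, and CCL8, a monocyte chemokine, had 0.966. SDS (0.961), RAB20 (0.946), IFI30, a lysosomal thiol reductase (0.946), CSF3R, the receptor of granulocyte colony-stimulating factor (0.941), CCL2 (0.935) and the plasminogen activator PLAU (0.935) followed, and the remaining places were C1QA and C1QB, which are part of the sum. The points of a library share its depth and its free RNA, and the values are a description.

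Cell-level overlap was taken as the Jaccard index (cells with both over cells with either) in whichever library was lower, and partners were sought among genes detected in at least 50 cells of each library. That minimum leaves out LYVE1, MRC1, CD209, COLEC12 and CCL14 as partners. LYVE1 and MRC1 had 0.238 in EL and 0.193 in EIS, and MRC1 and CCL14 had 0.263 in EL and 0.150 in EIS. The lower values of these pairs, 0.193 and 0.150, lay above the lower values of the partners named here for these 3 genes. Among the genes that met the minimum, LYVE1 overlapped most with SOX18, an endothelial transcription factor (0.140 in EL, 0.126 in EIS), and with MMRN1, a lymphatic marker (0.243 in EL, 0.119 in EIS). MRC1 overlapped with MMRN1 (0.143 in EL, 0.0865 in EIS) and MAN1A1, a Golgi mannosidase (0.0735 in EL, 0.104 in EIS). C1QA and C1QB overlapped with each other (0.288 in EL, 0.322 in EIS) and next with CCL8. DAB2 overlapped with RBP4, the plasma retinol carrier (0.218 in EL, 0.472 in EIS), and LGALS8, a galectin (0.210 in EL, 0.226 in EIS). F13A1 was paired with EMILIN2 and FGR and CCL14 with CD14 and ZEB2, all at 0.0632 or below in EL. For COLEC12, found in 1 EL cell, the rule gave IL1B and TLR4 at 0.0200 and below in EL, and for CD209, found in none, it gave no value above 0. In EIS alone, under the same minimum, other partners led. There LYVE1 overlapped most with EGFL7 (0.189), a vascular marker, and C1QA (0.188), and MRC1 with C1QA (0.157) and HOMER3 (0.145). CCL14 overlapped most with LMO2 (0.164) and EGFL7 (0.156), and CD209 with AQP9 (0.161) and F13A1 (0.123).

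Other genes of the same processes came from lists that leave out the 9 genes. Only list genes with a symbol and 20 or more UMIs in the gate were measured. Their list medians were nearer 0 in the macrophage gate than the -3.52 of the 9, which is the bound of CD209. Single genes such as THBS1 and MARCO differed by as much as some of the 9. The list genes are counted here against a 2-fold difference, which 10.5% of all genes reached as lower and 10.2% as higher in EL. They are also set against the median log2 ratio of 0.17 over all genes. Of 7 measured classical complement genes and regulators 2 were higher and 1 lower in EL, with a median of 0.34. C3, the central complement component, had 755 CPM in EL and 352 CPM in EIS (ratio 2.15, 1.88 to 2.45), C2, the protease that cleaves it, had 39.5 CPM in EL and 11.7 CPM in EIS, and CD59, an inhibitor of the membrane attack complex, had 17.6 CPM in EL against 46.0 CPM in EIS. Of 4 complement receptors none differed by 2-fold (median -0.57). C3AR1 had 72.5 CPM in EL and 143 CPM in EIS, VSIG4 had 32.9 CPM in EL and 60.6 CPM in EIS, and ITGAM had 61.5 CPM in EL and 50.9 CPM in EIS. C3AR1 and VSIG4 are gate markers.

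Of 6 other scavenger and lectin receptors 1 was higher and 2 were lower in EL, with a median of 0.10. MARCO, the gate marker described above, was 13.5-fold higher in EL (5.12 to 41.5), resting on 18 UMIs in EL and 6 in EIS. OLR1, a receptor for oxidised lipoprotein, had 6.59 CPM in EL and 17.6 CPM in EIS, and SCARA5, a ferritin receptor, had 0 UMIs in EL and 28 in EIS. Of 15 engulfment and endocytosis genes 2 were higher, 1 was lower and 12 lay within 2-fold (median -0.03). GAS6, a bridge between dying cells and their receptors, had 116 CPM in EL and 33.3 CPM in EIS (ratio 3.50, 2.40 to 5.09), and AP2B1, a subunit of the clathrin adaptor AP-2, had 152 CPM in EL and 61.1 CPM in EIS. MFGE8, another bridge to dying cells, had 6.59 CPM in EL against 40.6 CPM in EIS.

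Of 21 listed tissue-resident macrophage genes 12 had a symbol and 11 were measured, and CD163 and CSF1R were not among the 11. Of the 11, 1 was higher and 4 were lower in EL (median -0.50), and this median says nothing of the unmeasured genes. SLC40A1, the iron exporter ferroportin, had 28.6 CPM in EL and 92.9 CPM in EIS (3.26-fold lower in EL, 1.86 to 6.23), IGF1 had 13.2 CPM in EL and 40.6 CPM in EIS, and GAS6, also on this list, was higher. Of 15 monocyte and inflammatory genes none was higher and 6 were lower in EL (median -0.96). THBS1, a matricellular glycoprotein, had 0 UMIs in EL and 238 CPM in EIS, at least 36.1-fold lower in EL, beside trophoblast markers at 0 in EL and 389 CPM in EIS, and their part in this was not tested. IL6 had 4.39 CPM in EL and 20.5 CPM in EIS and S100A12 had 2.20 CPM in EL and 9.29 CPM in EIS, on 2 and 1 EL UMIs. Of 9 coagulation genes none was higher and 5 were lower in EL (median -1.003): PLAT, F2 and SERPINE2 had 0 UMIs in EL and 30.3, 25.9 and 19.6 CPM in EIS.

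Of 8 chemokines 1 was lower in EL (median -0.45): CCL2, a monocyte attractant, had 59.3 CPM in EL and 145 CPM in EIS. CCL4 had 3061 CPM in EL and 5204 CPM in EIS, and CXCL8 had 52.7 CPM in EL and 91.9 CPM in EIS. All 7 antigen presentation genes lay within 2-fold (median 0.34), with SLA-DMB, a chain of the peptide-loading class II molecule, at 299 CPM in EL against 181 CPM in EIS, CD40 with 87.8 CPM in EL against 58.7 CPM in EIS, and the costimulator CD86, a gate marker, at 83.4 CPM in EL against 64.1 CPM in EIS.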

How the data were processed

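Counts were analysed as deposited by the authors: UMI counts per gene and cell barcode, 1 table for each sow. The submitters' processing notes name Cell Ranger 2.1.1, whereas per the file headers the tables were written by cellranger 6.1.0, and neither names a genome build or an annotation. Among 26881 features, 16128 have no symbol and entered totals only. EL had 10936 barcodes and 43302286 UMIs, and EIS had 8848 barcodes and 36069473 UMIs.

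Cells with at least 500 UMIs and 300 genes were kept. Scrublet (scanpy 1.11.5) marked 0 EL and 1 EIS cells at its own threshold, so the highest-scoring 0.8% per 1000 barcodes were removed instead, 933 EL and 601 EIS cells. Types were gated with marker lists: a cell needed UMIs of 3 distinct markers of a type, and went to the type whose markers most exceeded their share of the library, using the higher share of both libraries. Dendritic and trophoblast gates held 0 EL cells, and mast and mesothelial markers were too few to gate. The way types were scored was chosen after levels were seen.

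Counts were summed per library and type and given as CPM of the type's total. Intervals are exact Poisson for levels, Clopper-Pearson for shares and conditional binomial for ratios, at 95%, and a count of 0 was set against a floor of 3 UMIs over the group. PCR duplicates are collapsed by the UMI, and intervals cover counting error only. With 1 library per condition no test was made. The calculations were tested on simulated counts, with Python 3.11.15, numpy 2.4.6, scipy 1.17.1 and pandas 2.3.3.

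The 9 genes and all lists were chosen with earlier results of these data known. Beside the 9 genes, the text names the 10 genes most like their summed profile, 2 genes per member by cell overlap, and up to 3 genes per list with the largest log2 ratio, with 20 or more UMIs. Alternatives changed the cell filter, doublet removal, gate, scaling, free RNA, depth and thresholds.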

Additional observations from a re-analysis of the deposited data

Results flagged for a closer look

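DAB2 differed in direction between gated types. Its log2 ratio of EL over EIS was 2.07 in lymphatic-gated cells, from 53 EL and 69 EIS UMIs, and 1.82 in neutrophil-gated cells, from 10 EL and 47 EIS UMIs, against -2.90 in the macrophage gate, from 68 EL and 2277 EIS UMIs. The difference between types was not tested, since each library holds 1 sow, and the lymphatic and neutrophil gates held only 17 and 12 EL cells.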

How the results depend on the processing

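Of the 7 genes that were at least 2-fold lower in EL within the macrophage gate, all 7 stayed so under each alternative that touches the gate, including 3 that were chosen after seeing the data. All 9 stayed at least 2-fold lower over all kept cells under the alternatives of filter, doublets and scaling. C1QB turned to a log2 ratio of 0.25 in gated cells with C1q UMIs, which leaves out gated cells without C1q by construction. CXCL8 (-0.80 as reported) turned to 0.54 with 1000 genes per cell, 0.15 with 5 markers and 0.86 in gated cells with C1q UMIs, and with each library's own marker share CD40 (0.58) turned to -0.43 and SLA-DMB (0.72) to -0.33. The cause was not tested. The log2 ratio of the gate's share of cells, -2.87 as reported, was -3.24 with 1000 genes, -2.54 with 5 markers and -2.54 with each library's own share. Cells with at least 3 of the 9 genes, 0.395% in EL and 11.4% in EIS, were 0.566% in EL and 17.5% in EIS with 1000 genes and 0.254% in EL and 4.09% in EIS at 1000 UMIs. For 2 genes they were 1.38% in EL and 25.7% in EIS, and for 5 genes 0.0304% in EL and 2.50% in EIS. EL pairs in at least 3 gated cells dropped to 3 at 1000 UMIs, against 15. List genes at least 2-fold lower in EL, 20 as reported, were 8 with a minimum of 100 UMIs, where fewer genes are counted, and 39 with each library's own share. Trimmed-mean scaling placed all log2 ratios 0.29 lower in the gate and 0.49 lower over all cells. No paired analysis was possible because each condition has 1 sow. Levels below about 3 UMIs, such as COLEC12 and CD209 in EL, are limited by the 96 gated EL cells.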
